A study of Mus musculus with 4 samples.

Results

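Day 7 embryoid bodies (EBs) treated with bexarotene were compared with EBs treated with retinoic acid (RA) as the difference between 2 arrays, taken over every probe set that the array annotation ties to exactly 1 gene symbol. Of the 35556 probe sets on the array, 21789 met this rule, and they stand for 19938 genes. EBs are aggregates of embryonic stem (ES) cells in which derivatives of the germ layers begin to form. Mouse ES cells, of the D3 line by the study's methods, spent 2 days in hanging drops followed by 5 days of suspension culture, and the same series holds 1 array of undifferentiated ES cells and 1 of untreated EBs of day 7. The bexarotene-treated EBs had 50 nM bexarotene. The RA-treated EBs had RA at 5 µM by the sample labels and at 10 nM by the methods, so the doses differed by either account, and a difference of ligand cannot be told apart from one of dose. Each condition is 1 culture of 1 line on 1 array. There is no replicate, so no test was made, and every value below is a difference between 2 arrays. Signal is on the log2 scale, where a difference of 1 is a 2-fold difference, and it was compared only within a probe set.

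RA binds the retinoic acid receptors (RARs), which pair on DNA with the retinoid X receptors (RXRs) and switch from repression to activation when ligand binds. Bexarotene is a rexinoid, a synthetic ligand of the RXRs. RXRs are also the partners of other nuclear receptors, among them the LXRs, which respond to oxysterols, and the PPARs, which respond to fatty acids, so that a rexinoid can in principle reach more heterodimers than RA does. In the embryo RA sets anterior and posterior fates in the neural tube through the Hox genes, promotes the birth of neurons, and patterns the mesoderm beside the somites.

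The labels were first set against genes that define ES cells. Pou5f1, the transcription factor at the core of pluripotency, had a signal of 11.67 in ES cells, 8.78 in untreated EBs, 9.42 under RA and 8.81 under bexarotene. Nanog, another core factor, had 11.65, 9.18, 9.91 and 9.59 in the same order. Both were highest on the ES cell array and remained measurable in all 3 EB arrays. EBs hold many cell types at once, and in such a mixture fewer cells of a type and less RNA per cell cannot be told apart.

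Relative to RA, the bexarotene array had higher signal for some genes of lateral mesoderm, for most listed genes of mesenchyme and extracellular matrix and for several direct RAR targets. It had lower signal for genes of neurons, of the anterior brain and of pluripotency. At a threshold of 1.5-fold, a log2 difference of 0.585, 41 of 19938 genes were higher with bexarotene (0.206%) and 60 were lower (0.301%), which together is 0.507% of the genes. Counts within gene lists below are to be read beside these shares. A gene with several probe sets was counted if 1 or more of them passed the threshold and no other passed it in the opposite direction. Past 2-fold were 6 higher genes, Osr1, Hapln1, Foxf1, Ccdc80, Tecrl and Cd36, and 0 lower ones. Many of the differences lay close to the threshold, since 46 of the 101 genes were under 1.6-fold.

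The rest of the 2 arrays differed little. The median difference over all genes was -0.01, with quartiles of -0.09 and 0.06, and 1 gene in 100 lay below -0.41 and 1 in 100 above 0.35. In 20 bins of signal the robust SD of the difference ran from 0.0717 to 0.138. That spread comes from this same pair of arrays and describes it alone. It is no measure of the spread between cultures. Of the 101 genes, 19 had a signal under the array median on both arrays, 8 of them higher and 11 lower, and 9 were unnamed gene models or small RNAs.

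**Figure D1:**
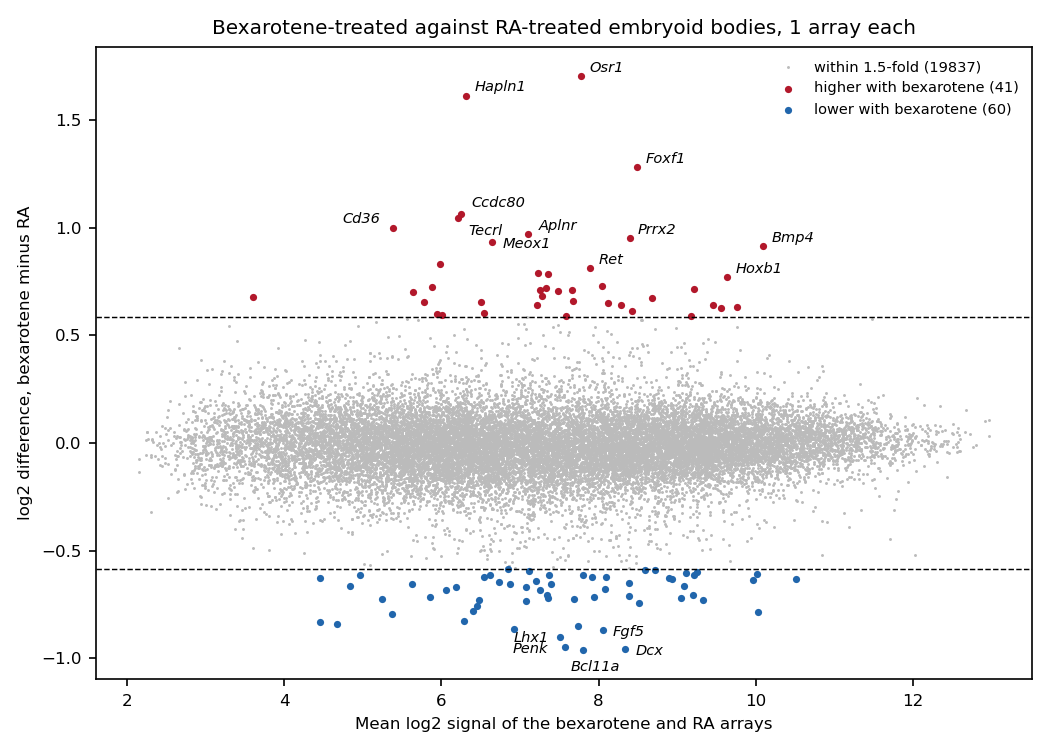
Each point is a gene, placed by its mean log2 signal on the bexarotene and RA arrays and by the log2 difference, bexarotene minus RA, with dashed lines at 1.5-fold. The 41 higher genes (red) reach 1.71 for Osr1, and the 60 lower genes (blue) end at -0.96 for Bcl11a, and Ina, Tsen15 and Aldh3b3 are drawn at the difference of their probe set past the threshold.

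Mesodermal regulators headed the genes higher with bexarotene. Osr1, a zinc finger gene of lateral and intermediate mesoderm, had a signal of 6.19 in ES cells, 7.22 in untreated EBs, 6.92 under RA and 8.63 under bexarotene. Its difference of 1.71, or 3.26-fold, was the largest of all 19938 genes in either direction, and the bexarotene array stood apart from the other 3. Foxf1, a forkhead gene of the splanchnic mesoderm that lines the gut, had 7.45, 9.11, 7.85 and 9.13 in the same order. Here the RA array was the low one among the EBs, and bexarotene was within 0.02 of untreated EBs. Both probe sets of Foxf1 were past the threshold, at 1.28 and 1.51. Prrx2, a homeobox gene of mesenchyme, had 7.45, 8.18, 7.92 and 8.87, which is 1.93-fold higher with bexarotene than with RA.

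Of 27 measured genes of lateral and intermediate mesoderm, 4 were past 1.5-fold higher, Osr1, Foxf1, Prrx2 and Bmp4, and 1 was lower, against 0.206% and 0.301% of all genes. The lists of genes used here were drawn up with earlier results of these arrays known, so their counts are descriptions. The list's median difference was 0.09, beside -0.01 over all genes, and in sign 16 of the 27 were above 0 and 11 below. The gene lower past the threshold was Lhx1, a LIM homeobox gene used in intermediate mesoderm and in spinal interneurons. Lhx1 had 6.45 in ES cells, 8.07 in untreated EBs, 7.96 under RA and 7.06 under bexarotene. Pax2 and Emx2, which work in the nephric lineage and also in brain, had differences of -0.37 and -0.50 and were within the threshold. Pax8 (0.15), Wt1 (0.08) and Osr2 (0.09), also genes of the nephric lineage, differed little. Among other members within the threshold, Tbx5, a T-box gene of heart and forelimb, had 0.57, Hand1 had 0.45 and Irx3 had 0.45, whereas Gata4 and Gata6 stood at -0.02 and -0.01.

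Matrix and mesenchyme genes made up a further group. Hapln1, the link protein that holds proteoglycans on hyaluronan, had 4.97 in ES cells, 6.80 in untreated EBs, 5.51 under RA and 7.12 under bexarotene, a 3.06-fold difference between the ligands. Ccdc80, a secreted matrix protein, had 5.63, 6.12, 5.71 and 6.78. Snai2, a repressor of epithelial genes, had 6.55, 7.84, 7.30 and 8.01. For these 3 genes the RA array was below untreated EBs and the bexarotene array was above them. Has2, the enzyme that makes hyaluronan, had 7.03, 10.61, 9.14 and 9.78, so that both ligands were below untreated EBs and RA the more so. Of 25 genes of this group, 5 were past the threshold, all higher, against 0.206% of all genes: these 4 and Prrx2. In sign, 21 of the 25 were above 0, where 9112 of 19938 genes were, and the median was 0.16. Structural collagens differed little, with 0.24 for Col1a1, -0.12 for Col1a2 and 0.08 for Col3a1, and the lowest member was Postn, a matricellular protein, at -0.52.

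**Figure D2:**
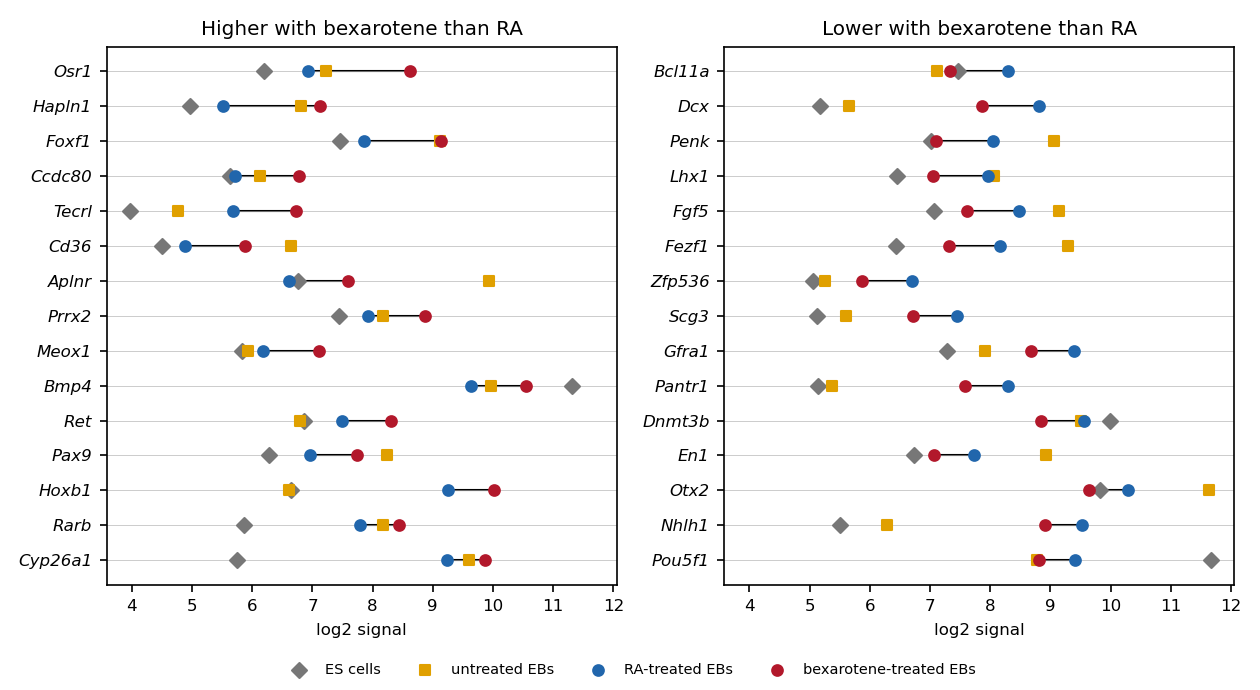
Log2 signal of 15 genes higher (left) and 15 genes lower (right) with bexarotene than with RA, 1 point per array and no replicates, with a line joining the RA and bexarotene arrays. Osr1 and Meox1 are highest on the bexarotene array, while Aplnr, Otx2 and Fezf1 are highest in untreated EBs.

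Genes of the somites, the blocks of paraxial mesoderm from which skeletal muscle comes, were higher in part. Meox1, which encodes a homeodomain factor of early somites, had 5.83 in ES cells, 5.94 in untreated EBs, 6.18 under RA and 7.11 under bexarotene, a difference of 0.94 (1.91-fold). Its signal lay between 5.83 and 6.18 on the 3 other arrays. Pax9, a paired box gene of the sclerotome and pharynx, had 6.28, 8.24, 6.96 and 7.75, so its highest array was untreated EBs. These were the 2 of 27 paraxial genes past 1.5-fold higher, and 0 were lower, against 0.206% and 0.301% of all genes. Foxc2 (0.54), Pax7 (0.50), Pax3 (0.40) and Foxc1 (0.39), all regulators of somite mesoderm or of the dermomyotome, were higher with bexarotene but within 1.5-fold. Genes of the segmentation clock and of presomitic mesoderm were not among the higher ones: Tbx6 had -0.08, Mesp2 -0.00, Msgn1 0.04 and Hes7 0.06, and the Notch ligands Dll1 and Dll3 had -0.31 and -0.38. The list's median was 0.04.

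The muscle regulatory factors did not separate the ligands. Myf5, which commits cells to the muscle lineage, had a signal of 4.90 in ES cells, 5.05 in untreated EBs, 5.00 under RA and 4.98 under bexarotene. Myod1 had 6.53, 6.53, 6.67 and 6.62. Neither gene stood out on any of the 4 arrays, and the differences of Myog and Myf6 between the ligands were 0.05 and 0.02. Of 20 genes of the myogenic network, Meox1 was the 1 past the threshold, and the median was 0.03.

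Aplnr and Kdr, genes of the cardiovascular mesoderm, were below untreated EBs with both ligands and lowest with RA. Aplnr, a receptor of early mesoderm and endothelial precursors, had 6.76 in ES cells, 9.94 in untreated EBs, 6.62 under RA and 7.59 under bexarotene. Kdr, the VEGF receptor of the same cells, had 6.13, 7.82, 6.17 and 6.83. For both genes the RA array was close to ES cells, and bexarotene lay between RA and untreated EBs. They were the 2 of 24 endothelial and blood genes past the threshold higher, against 0.206% of all genes. Hbb-y, the embryonic globin, was the 1 lower at -0.72, against 0.301%, and the list's median was -0.06. None of 23 cardiac genes was past 1.5-fold. Their median was 0.09, and beside Tbx5 and Hand1 the highest was Gata5 at 0.53, while Nkx2-5 and Tnni3 had -0.12 and -0.20.

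Among signalling genes the clearest difference was in ligands of the BMP family, growth factors that pattern ventral and lateral mesoderm. Bmp4 had 11.31 in ES cells, 9.97 in untreated EBs, 9.63 under RA and 10.55 under bexarotene, a difference of 0.91 (1.89-fold). Bmp5 had 5.26, 8.58, 6.79 and 7.38, and Bmp2 had 5.33, 9.08, 7.69 and 8.22. For Bmp4 the bexarotene array was above untreated EBs and the RA array below, while for Bmp5 and Bmp2 both ligands were below. Bmp5, with a difference of 0.58, and Bmp2, with 0.54, were just inside the threshold, and Bmp7 (0.07) and Bmp6 (-0.28) did not share the pattern. Of 31 BMP pathway genes Bmp4 was the 1 past 1.5-fold, and 26 of the 31 were above 0, with a median of 0.08.

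Within the BMP pathway list, no gene that responds to or restrains BMP was past the threshold. Id1, Msx1 and Bambi, which BMP signals are known to activate, had 0.26, 0.27 and 0.27, and Id2 and Id3 had 0.09 and 0.12. Id4 was the lowest member at -0.45. The antagonists Nog, Chrd and Chrdl1 had differences of 0.00, 0.08 and 0.00, whereas the activin and BMP antagonist Fst had 0.41. The receptors Bmpr1a, Bmpr1b and Bmpr2 had 0.08, 0.15 and 0.07. Tgfb2, a ligand of the related TGF-beta branch, had 5.83 in ES cells, 10.40 in untreated EBs, 7.68 under RA and 8.41 under bexarotene, and Tgfbi, a matrix protein named for its response to TGF-beta, had 8.16, 8.36, 8.35 and 9.02. Tgfb2 was thus far below untreated EBs with both ligands, while Tgfbi was higher on the bexarotene array than on the 3 others.

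Other pathways gave few genes past the threshold. Of 34 Wnt ligands and targets there were 0, with a median of 0.01, 0.39 for Wnt1 and -0.31 for Wnt7a. Of 23 FGF genes there was 1, Fgf5, a growth factor of the epiblast, with 7.06 in ES cells, 9.15 in untreated EBs, 8.48 under RA and 7.62 under bexarotene. Of 16 Hedgehog pathway and ventral neural tube genes there was 1, the ventral homeobox gene Nkx2-2, with 6.17, 7.99, 7.20 and 6.54, and Shh itself had a difference of -0.21. Fgf5 and Nkx2-2 shared an order, highest in untreated EBs, then RA, then bexarotene. Of 19 Notch pathway genes 0 were past the threshold, with a median of -0.15.

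Direct targets of RAR were on balance higher with bexarotene than with RA itself. Of 19 measured targets 4 were past 1.5-fold higher, Ret, Hoxb1, Rarb and Cyp26a1, and 0 were lower, against 0.206% and 0.301% of all genes. In all 13 of the 19 were above 0, and the median was 0.17. Hoxb1, a Hox gene of the hindbrain, had 6.65 in ES cells, 6.61 in untreated EBs, 9.25 under RA and 10.02 under bexarotene. Ret, the receptor tyrosine kinase for the GDNF ligands, had 6.86, 6.79, 7.49 and 8.30. Both genes were above untreated EBs with either ligand and highest with bexarotene. Rarb, which encodes a retinoic acid receptor, had 5.86, 8.17, 7.79 and 8.44, and Cyp26a1, the enzyme that degrades RA, had 5.75, 9.60, 9.24 and 9.87. For Rarb and Cyp26a1 the untreated EBs already had a high signal, the RA array was below it and the bexarotene array above it. Crabp2, which carries RA to the nucleus, had 6.79, 10.46, 11.19 and 11.76, and its difference of 0.58 was just inside the threshold. Targets that differed little included Meis1 (0.12), Dhrs3 (0.03), Cyp26b1 (-0.09) and Nr2f1 (-0.14), and the lowest was Cdx1, a caudal homeobox gene, at -0.28.

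RAR and RXR dimers classically bind a direct repeat of 2 elements of 6 bases, and the repeat spaced by 5 bases, DR5, is the usual site of RA-responsive genes. Promoters from RefSeq on GRCm38.p6, from 250 bases before to 50 after a gene's start, were searched on both strands for 2 elements, each AGGTCA or AGTTCA or GGGTCA or GGTTCA, with 1, 2 or 5 bases between them. Rarb and Cyp26a1 are shown because they are the RAR targets past the threshold that held such a repeat, which is in capitals:
Rarb, chr14:16575427-16575726, minus strand: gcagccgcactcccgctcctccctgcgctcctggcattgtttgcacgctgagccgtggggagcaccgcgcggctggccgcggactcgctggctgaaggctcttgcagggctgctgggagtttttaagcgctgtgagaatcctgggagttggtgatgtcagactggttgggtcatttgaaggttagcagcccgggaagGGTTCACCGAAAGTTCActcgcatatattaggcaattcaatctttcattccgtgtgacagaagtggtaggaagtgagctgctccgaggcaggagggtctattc
Cyp26a1, chr19:37697558-37697857, plus strand: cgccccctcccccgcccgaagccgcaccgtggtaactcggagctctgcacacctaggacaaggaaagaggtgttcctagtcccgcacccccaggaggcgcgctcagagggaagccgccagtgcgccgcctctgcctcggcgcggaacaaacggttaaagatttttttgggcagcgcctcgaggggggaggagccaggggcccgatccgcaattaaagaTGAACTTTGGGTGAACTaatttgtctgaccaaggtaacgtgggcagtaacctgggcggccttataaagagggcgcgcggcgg

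In Rarb the repeat runs from -53 to -37 relative to the gene's start, and in Cyp26a1 it lies on the opposite strand from -32 to -16. Such a DR5 was found in 11 of the 15614 measured genes with a promoter in the table (0.0704%). It was in 2 of the 26 genes higher with bexarotene that had a promoter, Rarb and Cyp26a1, and in 1 of 45 lower genes, Hbb-y. The promoter of Hoxb1, at chr11:96365508-96365807, held no repeat of these letters. The paper cites known RA response elements of Hoxb1 that lie upstream of its promoter, and this search does not bear on those. A promoter was in the sequences used for 14 of the 19 RAR targets. Ret had none there, so it was not searched. A match is a stretch of letters in this window, and binding was not measured.

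Of the receptor genes themselves, Rarb was the 1 of 6 past the threshold. Rara (0.07), Rarg (0.03), Rxra (-0.00) and Rxrb (-0.12) differed little. Rxrg had 7.41 in untreated EBs, 6.87 under RA and 6.38 under bexarotene, a difference of -0.49. Among 18 genes of retinoid metabolism and transport the median was 0.13. Aldh1a2 and Rdh10, which make RA from retinol, had 0.29 and 0.28, Cyp26c1 and Stra6 had 0.30 and 0.23, and Ttr, the plasma carrier made by visceral endoderm, was the lowest at -0.49. Cyp1b1, a P450 enzyme that also acts on retinoids, stood at 5.50 in ES cells, 5.88 in untreated EBs, 6.98 under RA and 7.70 under bexarotene.

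Hox genes of paralog groups 1 to 5, which lie at the early, anterior end of the clusters, did not shift as a block. Of 14 measured, Hoxb1 was the 1 past the threshold, 9 were above 0 and the median was 0.07. Hoxb2 had 6.73 in ES cells, 6.52 in untreated EBs, 9.58 under RA and 10.01 under bexarotene, and Hoxa2 had 5.27, 5.71, 8.52 and 8.81, so both were far above untreated EBs with each ligand and 0.43 and 0.29 apart between the ligands. Hoxb3 differed by -0.12, and Hoxb4 was lower with bexarotene, at 6.91 against 7.32 with RA. Along the HoxB cluster the difference therefore went from 0.77 for Hoxb1 through 0.43 for Hoxb2 and -0.12 for Hoxb3 to -0.41 for Hoxb4, with 0.02 for Hoxb5. The 23 genes of groups 6 to 13 had a median of 0.03 and 0 past the threshold.

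Among targets of the other RXR partners, 2 PPAR targets were past the threshold and no LXR target was. Of 18 LXR targets, 0 were past 1.5-fold, 9 were above 0 and 9 below, and the median was -0.01. By the probe set of highest signal Abca1, the cholesterol efflux pump, was the highest at 0.34, with 8.99 in ES cells, 7.51 in untreated EBs, 7.58 under RA and 7.92 under bexarotene. It was followed by Lpcat3 (0.22), Scd1 (0.22) and Acaca (0.19), genes of lipid synthesis and remodelling, and another probe set of Acaca gave 0.44, while Srebf1 (0.04), Abcg1 (-0.03) and Mylip (-0.12), which are among the best known LXR targets, differed little. Of 20 PPAR targets, 2 were past the threshold, both higher, against 0.206% of all genes. Cd36, a fatty acid scavenger receptor, had 4.49 in ES cells, 6.65 in untreated EBs, 4.88 under RA and 5.88 under bexarotene, and its signal was below the array median on both ligand arrays. Vnn1, a pantetheinase, had 6.06, 6.66, 6.89 and 7.53. The other 18 lay between -0.23 for Fabp3 and 0.09 for Acaa2, among them Pdk4 (0.02), Cpt1a (-0.14), Angptl4 (-0.13) and Plin2 (0.04), and the list's median was -0.05. Of 10 targets of the vitamin D, thyroid hormone and bile acid receptors 0 were past the threshold, with a median of 0.02.

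Neuronal genes were lower with bexarotene than with RA throughout the list that was drawn up for them. All 37 measured members were below 0, where 10764 of 19938 genes were, and the median was -0.40 with quartiles of -0.48 and -0.31. Relative to untreated EBs the list's median was 0.53 with bexarotene and 0.88 with RA, so both ligand arrays stood above untreated EBs and RA the higher. Of the 37, 5 were past 1.5-fold, Bcl11a, Dcx, Map2, Pou3f4 and Ina, against 0.301% of all genes.

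Dcx, a microtubule protein of migrating young neurons, had 5.18 in ES cells, 5.65 in untreated EBs, 8.81 under RA and 7.86 under bexarotene. Bcl11a, a zinc finger repressor of neurons and blood cells, had 7.47, 7.12, 8.29 and 7.33. Dcx was well above untreated EBs with both ligands, whereas Bcl11a was near untreated EBs with bexarotene. Pou3f4, a POU factor of the neural tube, had 7.01, 8.93, 10.31 and 9.71, and Map2, a dendritic microtubule protein, had 7.56, 8.65, 9.20 and 8.58. Pan-neuronal markers within the threshold were Tubb3, the neuronal tubulin, at -0.55, the RNA-binding proteins Elavl4 and Elavl3 at -0.52 and -0.48, and the neurofilaments Nefl and Nefm at -0.32 and -0.31. Onecut1, a transcription factor of motor neurons and other early neurons, was at -0.58, just inside it. The smallest differences were those of Gap43 (-0.03), Syp (-0.09) and L1cam (-0.11). For Ina, an intermediate filament protein, the 2 probe sets gave -0.63 and -0.42, so that 1 was past the threshold and the other was not. By its probe set of highest signal Ina had 10.42 in ES cells, 8.75 in untreated EBs, 10.72 under RA and 10.30 under bexarotene. Its signal was thus also high in ES cells.

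The factors that drive cells into neuronal differentiation had smaller differences in the same direction. Of 15 proneural genes 13 were below 0, with a median of -0.26. Nhlh1, which marks newly born neurons, had 5.50 in ES cells, 6.29 in untreated EBs, 9.52 under RA and 8.91 under bexarotene and was the 1 past the threshold. Neurog1 (-0.47), Neurod4 (-0.44), Nhlh2 (-0.37) and Neurod1 (-0.35) followed, while Neurod2 (-0.03), Olig3 (0.02) and Olig1 (0.14) were close to 0. Genes of dividing neural progenitors also lay mostly below 0, by smaller differences. Of 17, 0 were past 1.5-fold, 15 were below 0 and the median was -0.06, with Slc1a3 the lowest at -0.34. Pax6, a regulator of progenitors, was the same to within 0.01, at 9.56 under RA and 9.55 under bexarotene.

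Lists of other neuronal genes had smaller medians. Of 22 genes of neuropeptides and secretory granules 2 were past 1.5-fold lower, Penk and Scg3, 6 were above 0 and the median was -0.09. Of 21 transcription factors of neuron subtypes 4 were past it lower, Lhx1, En1, Lhx5 and Lhx2, 7 were above 0 and the median was -0.14. Over all genes 0.301% were past 1.5-fold lower. Penk, the precursor of the enkephalin peptides, had 7.02 in ES cells, 9.07 in untreated EBs, 8.04 under RA and 7.10 under bexarotene, so that its highest array was untreated EBs and its bexarotene value was near that of ES cells. Scg3, a protein of secretory granules, had 5.13, 5.60, 7.44 and 6.71. Gfra1, the co-receptor through which GDNF signals with Ret, had 7.28, 7.91, 9.40 and 8.68, so Gfra1 was lower with bexarotene while Ret was higher. Pantr1, a noncoding RNA transcribed beside Pou3f3, had 5.14, 5.38, 8.30 and 7.58. Pak3, a kinase of dendritic spines (-0.78), Dcc, the netrin receptor of growing axons (-0.62), Robo3, a receptor of commissural axons (-0.68), and Gpm6b, a membrane protein of neurons and glia (-0.60), were also past the threshold.

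**Figure D3:**
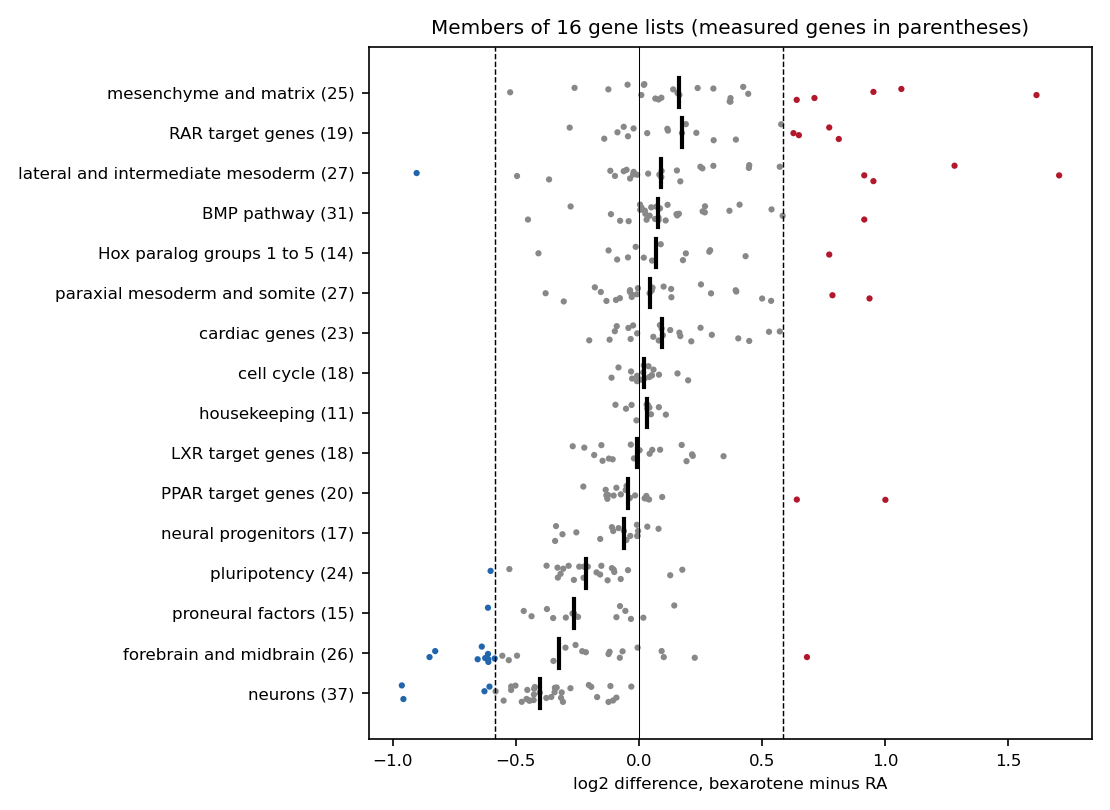
Log2 differences, bexarotene minus RA, of the members of 16 gene lists, with black bars at the list medians, dashed lines at 1.5-fold, and points past it in red (higher) or blue (lower). A gene stands by its probe set of highest mean signal. All 37 neuronal genes lie below 0, and the mesenchyme and RAR target lists have medians of 0.16 and 0.17.

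Genes that mark the forebrain and midbrain formed the group with the most members past the threshold. Of the 26 genes measured, 9 were lower past 1.5-fold and 1 was higher, against 0.301% and 0.206% of all genes. In sign 22 were below 0, and the median was -0.32, or -0.53 without genes below the median signal of both arrays. Relative to untreated EBs the list's median was -0.83 with bexarotene and -0.49 with RA. Otx2, which specifies forebrain and midbrain, had 9.82 in ES cells, 11.64 in untreated EBs, 10.29 under RA and 9.65 under bexarotene. Fezf1, a repressor of the anterior forebrain, had 6.43, 9.29, 8.16 and 7.31, and En1, a homeobox gene of the midbrain and hindbrain boundary, had 6.74, 8.92, 7.73 and 7.07. These 3 shared an order, with untreated EBs highest, RA next and bexarotene lowest of the EB arrays. Lhx5 (-0.62) and Fezf2 (-0.61), which also act in the forebrain, had the same order. Lhx2, a regulator of cortex and eye, differed in that RA (8.10) was close to untreated EBs (8.31) and bexarotene (7.49) was lower.

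Not every anterior gene had that order. Zfp536, a zinc finger repressor of neurons, had 5.05 in ES cells, 5.25 in untreated EBs, 6.70 under RA and 5.87 under bexarotene, and En2 had 6.54, 5.94, 6.93 and 6.32. Both were therefore lowest in untreated EBs among the EB arrays. Hesx1 and Six3, genes of the most anterior neural plate, had the order of Otx2 but were within the threshold, at -0.55 and -0.30, and both ligand arrays were near the ES cell signal. Dlx5, which is a gene of the ventral forebrain but also of the surface ectoderm and branchial arches, was the 1 higher member, with 6.11, 7.18, 6.94 and 7.62. In the surface ectoderm list Tfap2a (0.46), Gata3 (0.52) and Krt5 (0.34) lay on the same side within the threshold, and the median of its 13 genes was 0.14. Genes of hindbrain and spinal cord had a median of 0.02 over 15, with Msx3, a dorsal neural tube gene, higher at 0.59 and Nkx6-2, a ventral one, lower at -0.59.

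Pluripotency genes had lower signal with bexarotene than with RA, within a narrow range. Of 24, 22 were below 0, the median was -0.22, and Pou5f1, at -0.60, was the 1 past the threshold. Nr0b1, a nuclear receptor of ES cells, had 12.07 in ES cells, 7.37 in untreated EBs, 8.74 under RA and 8.22 under bexarotene, and Zfp42 had 10.07, 6.14, 6.80 and 6.50. For both, as for Nanog and Pou5f1, untreated EBs were the lowest array and RA the highest of the EBs. The list's median relative to untreated EBs was 0.31 with bexarotene and 0.55 with RA. Sox2 (-0.11), which neural progenitors also use, and Sall4 (-0.07) differed least among the core factors, and Lin28a was above 0 at 0.18. Dnmt3b, the DNA methyltransferase that acts de novo in the early embryo, had 9.99, 9.51, 9.55 and 8.85, so that 3 arrays lay close together and bexarotene was lower.

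The miR-302 genes, microRNAs of pluripotent cells, were also lower. They lie in 1 cluster of 5 hairpins at chr3:127545228-127545807 on the plus strand of GRCm38.p6. Mature forms from RefSeq are shown because the miR-302 3p arms printed here share a seed, bases 2 to 8 in capitals, shifted by 1 base in miR-302c. The 3p arm of miR-302a was missing from the sequences used, so its 5p arm is given. The 5p arms of miR-302b, miR-302c and miR-302d also have other seeds than their 3p arms, and miR-367 has a seed of its own:
mmu-miR-302b-3p: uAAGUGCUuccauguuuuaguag
mmu-miR-302c-3p: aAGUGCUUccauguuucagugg
mmu-miR-302d-3p: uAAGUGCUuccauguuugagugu
mmu-miR-302a-5p: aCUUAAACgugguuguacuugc
mmu-miR-367-3p: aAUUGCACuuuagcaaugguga

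Mir302a had 3.38 in ES cells, 5.35 in untreated EBs, 4.88 under RA and 4.05 under bexarotene. Mir302d had 4.39, 6.44, 5.77 and 4.97, and Mir302c had 3.58, 5.97, 5.18 and 4.51. These 3 were past 1.5-fold, and in each the order was untreated EBs, RA, bexarotene and ES cells. That order is unlike the one of Pou5f1, Nanog and Zfp42, which were highest in ES cells and lowest in untreated EBs. Mir302b differed by -0.50 and Mir367, whose seed is a different one, by -0.19, both within the threshold. All 5 had a signal under the array median on all 4 arrays. The probe sets carry the names of the hairpin genes, and the mature microRNAs were not measured.

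The remaining lists gave few or no genes past the threshold. Of 22 genes of extraembryonic endoderm 0 were, with a median of -0.08 and 0.19 for Afp, and of 12 trophoblast genes 0 were, with a median of 0.05. None of 11 housekeeping genes, 18 cell cycle genes, 15 immediate early genes or 10 genes of p53 and apoptosis was past 1.5-fold, and their medians lay between 0.02 and 0.03. Egr1, an early response transcription factor, was the lowest of these at -0.49. Fos (-0.45) and Fosb (-0.44), also immediate early genes, lay near it, while 9 of the 15 were above 0. Of 17 neural crest genes, Ret and Snai2 were higher and Gfra1 lower, and of 16 primitive streak genes Lhx1 was lower. Over all genes 0.206% were past 1.5-fold higher and 0.301% lower. Of 14 genes of definitive and anterior endoderm, 1 was higher, Prdm1, and 1 lower, Otx2, with a median of -0.03. Prdm1, a repressor used in endoderm, limb bud and germ cell precursors, had 7.34 with RA against 7.94 to 8.07 on the 3 other arrays.

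Of the 101 genes past the threshold, 45 were in at least 1 list, 21 of the higher and 24 of the lower. Among the higher genes outside the lists, Tecrl, a relative of enzymes of fatty acid elongation that is expressed in heart, had 3.97 in ES cells, 4.77 in untreated EBs, 5.69 under RA and 6.73 under bexarotene. Itga8, an integrin of mesenchyme and developing kidney, had 7.49, 7.51, 6.83 and 7.62, and Clu, a secreted chaperone, had 8.24, 9.47, 8.85 and 9.57. Tecrl was above untreated EBs with both ligands, whereas for Itga8 and Clu the RA array alone was below the other EBs. Thsd4, a microfibril protein (0.71), Agtr1a, an angiotensin receptor (0.64), and Zim1, an imprinted zinc finger gene (0.71), were also higher.

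Among the lower genes outside the lists, Dmrta1, a gene of the dorsal forebrain, had 6.58 in ES cells, 9.65 in untreated EBs, 7.72 under RA and 7.00 under bexarotene, and Nr2e1, a receptor of forebrain progenitors, had 5.91, 7.27, 6.85 and 6.12. Mab21l2, a gene of eye and midbrain, had 6.69, 9.58, 8.42 and 7.75. These 3 had the order seen for Otx2 and Fezf1. Megf10, a receptor of glia and muscle satellite cells, had 6.42, 7.02, 8.74 and 8.03, and Ttyh1, a membrane protein of neural progenitors and glia, had 8.71, 8.54, 9.70 and 8.97, with RA highest in both. Gng3, a neuronal G protein subunit, Plac8, Slc7a8, an amino acid transporter, Vrtn and Pim2, a kinase, were lower by differences of -0.66 to -0.76. The highest array of Gng3 was ES cells, at 9.85.

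Genes read by more than 1 probe set give the one check within the pair of arrays. Of 773 genes with 2 probe sets whose values were not the same, the median gap between their differences was 0.0776 and the 95th percentile was 0.302, and 1 gene had a gap of at least 1.5-fold. Of the genes past the threshold 5 had several probe sets. In Foxf1 all were past it, and in Ina, Tsen15 and Aldh3b3 at least 1 was not, with 0.15 and 0.59 for Tsen15. Snord118, a small nucleolar RNA, had 2 probe sets of identical values, and every other gene past the threshold rests on 1 probe set.

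**Figure D4:**
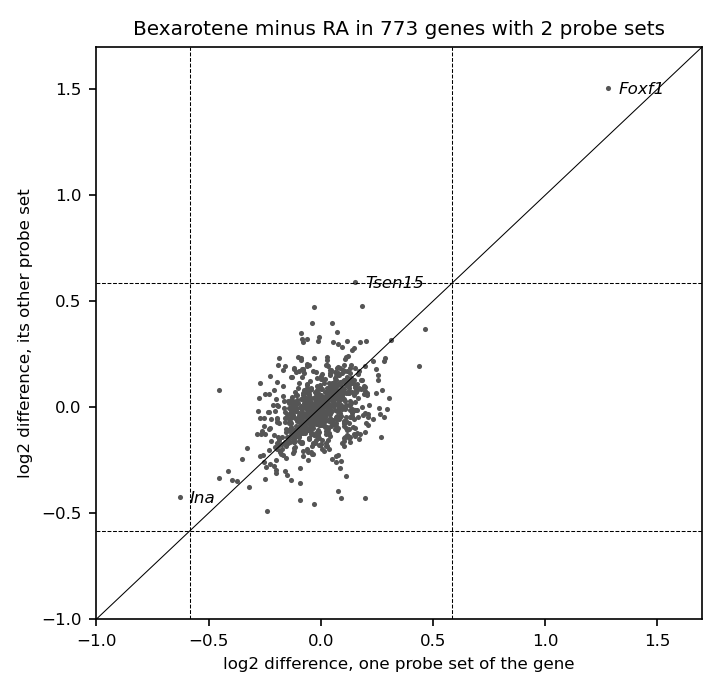
The log2 difference, bexarotene minus RA, from one probe set of a gene against that from the other, for 773 genes with 2 probe sets, with the diagonal and dashed lines at 1.5-fold. Foxf1 is past the threshold on both axes, and Ina and Tsen15 are past it on 1.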

How the data were processed

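Total RNA of 4 cultures was hybridised to 1 Affymetrix array each. The deposited table gives 1 log2 value for each probe set and array, after background correction, normalization and summarization by the authors. The methods name RMA and the submitters' processing notes name GCRMA, both in Affymetrix Expression Console. Scanner files were not processed again. Gene symbols are those of the platform annotation, in which 21789 probe sets have 1 symbol, 1621 have several and 12146 have none.

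The bexarotene column minus the RA column was computed in Python 3.11.15 with pandas 2.3.3. Where a gene had several probe sets, that of the highest mean signal on the 4 arrays was used for its level. The threshold was 1.5-fold. No test was made, because each condition has 1 array. The procedure was run on simulated data with differences set larger than nearly all those reported here. That run does not bear on calls near the threshold. The comparison and all 37 gene lists were chosen with earlier results of these data known.

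Genes named were up to 25 past the threshold in each direction, in order of size. Genes under the array median on both ligand arrays, gene models and small RNAs were left out of this ranking. Also named were the most different member of many lists and some of the genes the article discusses. Members of the receptor, RAR, LXR and PPAR target, BMP, lateral mesoderm, anterior Hox and neuron lists were named too. These last groups were not named in full. Values are not given for the article genes Dach2, Eya2 and Isl1, or for Nrarp and Hoxd8, the most different members of their lists. Other genes named, among them the miR-302 genes, Has2, Fezf2, En2, Dcc, Gpm6b, Snord118 and further members of the other lists, were chosen after their values were seen.

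Genes without a probe set of 1 symbol were not analysed here. Alternatives were quantile and loess scaling, a floor, leaving out low signal, other thresholds and other rules for several probe sets.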

Additional observations from a re-analysis of the deposited data

How the results depend on the processing

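The counts past 1.5-fold, 41 higher and 60 lower, stayed within 1.5 times of these values under quantile scaling (44 and 57), loess with a span of 0.3 (42 and 57), raising low values to each array's 25th percentile (40 and 53), leaving out genes below the median signal of both arrays (33 and 49), and taking either the highest probe set of a gene or the mean of its probe sets (39 and 59 by either). Another threshold moved them: at 2-fold 6 genes were higher and 0 lower, and at 1.3-fold 173 were higher and 257 lower. Of the 50 named genes 250 of 250 values moved by less than the robust SD of the difference. These genes were chosen with signal at or above the array median, so leaving out low signal could not move them. Taking the mean of probe sets could not move a gene with 1 probe set, and the floor left their values as they were. Their largest shift by quantile or loess scaling was 0.0357. Of the list medians 49 of 50 values moved by less than that SD. The exception was the forebrain and midbrain list, whose median went from -0.32 to -0.53 without genes below the median signal of both arrays, a setting that tests fewer genes. That SD is 0.115, which exceeds the size of the lateral mesoderm, BMP, anterior Hox, LXR and PPAR medians. For these lists a median could therefore reach 0 and still count as unmoved. The PPAR median went from -0.0451 to 0.0024 with the floor. The median of all genes lay between -0.01 and 0.02 in every setting. No paired analysis was possible because each condition has 1 array. The arrays give no spread between cultures, so no difference here, of any size, can be told apart from one between 2 cultures of 1 condition. Low signal further limits Cd36, Mir302a and the other genes under the array median.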

Other observations

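Probe sets without a gene symbol differed more often between the bexarotene and RA arrays than those with 1 symbol. Of 12146 without a symbol, 548 were past 1.5-fold (4.51%), against 103 of 21789 with 1 symbol (0.473%) and 4 of 1621 with several (0.247%). Most of the 548 were among 5998 probe sets with the lowest identifiers, where 332 were higher and 130 lower with bexarotene (7.70%), while 61 were higher and 25 lower among the other 6148 (1.40%). The median signal on these arrays was 5.82 without a symbol and 7.29 with 1 symbol. What these probe sets read is not given in the sources used here, and they entered no count of genes.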
